A study of Homo sapiens with 7 samples.

Results

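The 34 regions described here are the listed H3K4me3 regions that overlap the HIST1 clusters of replication-dependent histone genes on chromosome 6, out of 30840 regions in the deposited table. They were chosen by position alone, as every region overlapping 1 of 3 windows of hg19: chromosome 6, 26010000 to 26300000 (window 1, 20 regions), 27090000 to 27125000 (window 2, 4 regions) and 27770000 to 27870000 (window 3, 10 regions). No level or ratio entered this rule, but it was set with earlier results of these data known. The remaining 149 regions between 25 and 29 Mb of the same chromosome served as neighbours for comparison. H3K4me3, trimethylation of lysine 4 of histone H3, was measured by ChIP-seq, the sequencing of DNA recovered with an antibody to the mark, in the human colon cancer cell line HCT116. All cells carried the KDM5A-/- genotype and received an empty vector, wild-type KDM5A or a mutant KDM5A, and they were fixed 24 h after transfection. The series has 7 samples: 3 H3K4me3 libraries, 3 inputs and 1 IgG library labelled with all 3 transfections, and only the 3 H3K4me3 libraries were analysed here. The residues that the mutant changes, the share of cells that took up the plasmid and whether the knockout line is 1 clone are not stated in the labels.

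Replication-dependent histone genes encode the bulk H1, H2A, H2B, H3 and H4 proteins that package new DNA, and they are transcribed mainly in S phase. Their mRNAs end in a stem-loop, bound by SLBP, in place of a poly(A) tail, and their clusters gather in a nuclear body with the coactivator NPAT. H3K4me3 marks the start sites of active genes, and the demethylase KDM5A takes it off. Histone genes are short, have no introns in most cases and often lie head to head, so that neighbouring start sites can share a promoter.

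The RefSeq gene table of GRCh38.p14 gave the order of the genes. It lists 53 protein-coding histone genes in these clusters: 6 for H1, 11 for H2A, 14 for H2B, 10 for H3 and 12 for H4. Of these, 32 lie between TRIM38 and BTN3A2, with 1 other protein-coding gene, HFE, among them. Another 5 lie between ZNF322 and PRSS16, and 16 between ZNF184 and OR2B2. That build differs from the hg19 of the regions, so no region was assigned to a gene, and which window holds which gene was not analysed here. The label of the windows as histone clusters was therefore not checked against gene positions. H2AC1 and H2BC1, between SLC17A1 and SLC17A4, were left out, as only runs of 5 or more coding histone genes were used. The neighbouring regions were thus not shown to be free of histone genes.

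RefSeq promoters (GRCh38.p14) matched 48 of the 53 genes, and the 250 bases before each start were searched on both strands. In 9 pairs of genes on opposite strands these stretches overlapped, and 8 of the 9 were an H2A gene and an H2B gene. CCAAT, the box bound by the factor NF-Y, was found in 41 of the 48 (85.4%) and in 32.0% of all 35116 promoters of the table. It occurred at least 2 times in 64.6% of the histone promoters and in 9.53% of all promoters. TATAAA, the core of the TATA box, was found in 64.6% of the histone promoters and in 10.7% of all. The families differed in the letters they hold. ATTTGCA, most of the octamer that POU2F1 binds, was found in 11 of 14 H2B and 8 of 10 H2A promoters but in 1 of 8 H3, 0 of 6 H1 and 0 of 10 H4 promoters, and in 3.67% of all promoters. GGTCC was found in 9 of 10 H4 promoters, against 40.7% of all, and CCAAT in 3 of 10 H4 promoters. The GC box GGGCGG was found in 20.8% of histone promoters and in 42.6% of all. Median GC content was 41.2% in histone promoters and 58.0% over the table. TATAAA and its reverse complement can overlap and were then counted as 2 matches. Where the stretches of a pair overlap, a match in the shared bases counts for both genes. The counts of H2A and H2B promoters are therefore not independent.

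One promoter of each family, that with most CCAAT and TATAAA matches together, is shown to let these shared elements be seen. Capitals mark CCAAT and TATAAA on either strand. All are given 5′ to 3′ on the gene's strand and end at the base before the start in GRCh38.p14: H1-4 at chr6:26156079-26156328 (+), H2AC11 at chr6:27132793-27133042 (+), H2BC12 at chr6:27146859-27147108 (-), H3C3 at chr6:26045134-26045383 (+) and H4C2 at chr6:26027284-26027533 (-).
H1-4: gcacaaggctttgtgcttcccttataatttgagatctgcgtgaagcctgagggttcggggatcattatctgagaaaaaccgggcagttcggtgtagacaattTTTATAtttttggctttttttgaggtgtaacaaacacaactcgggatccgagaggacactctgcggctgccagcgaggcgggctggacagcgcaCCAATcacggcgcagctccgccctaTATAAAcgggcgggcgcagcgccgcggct
H2AC11: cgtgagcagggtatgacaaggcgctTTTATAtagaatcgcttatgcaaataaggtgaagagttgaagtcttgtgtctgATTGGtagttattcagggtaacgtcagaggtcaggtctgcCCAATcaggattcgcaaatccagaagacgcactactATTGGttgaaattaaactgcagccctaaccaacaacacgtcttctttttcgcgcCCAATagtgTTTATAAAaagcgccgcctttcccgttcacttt
H2BC12: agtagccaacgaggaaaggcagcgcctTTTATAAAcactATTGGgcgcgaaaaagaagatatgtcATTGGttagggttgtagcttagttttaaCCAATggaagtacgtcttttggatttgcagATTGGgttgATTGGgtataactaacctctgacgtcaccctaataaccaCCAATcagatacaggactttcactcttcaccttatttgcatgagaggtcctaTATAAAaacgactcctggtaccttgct
H3C3: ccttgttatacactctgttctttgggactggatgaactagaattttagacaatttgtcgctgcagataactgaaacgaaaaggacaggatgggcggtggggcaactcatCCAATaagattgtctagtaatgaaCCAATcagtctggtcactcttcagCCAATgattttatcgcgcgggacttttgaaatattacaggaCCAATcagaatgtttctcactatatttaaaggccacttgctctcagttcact
H4C2: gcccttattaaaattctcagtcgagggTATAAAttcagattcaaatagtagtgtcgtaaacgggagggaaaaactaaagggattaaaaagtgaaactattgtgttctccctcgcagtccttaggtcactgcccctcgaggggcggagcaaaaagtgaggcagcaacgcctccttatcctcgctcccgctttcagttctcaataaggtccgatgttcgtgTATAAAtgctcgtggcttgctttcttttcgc
In H1-4, H2AC11, H2BC12 and H4C2 the last TATAAA match begins 29, 31, 27 and 31 bases before the start. H3C3 has 4 CCAAT and no TATAAA match, and H4C2 has 2 TATAAA and no CCAAT match. H2BC12 holds 6 CCAAT matches, the most of these 5 promoters. A match describes the letters of the window and does not show that a factor binds there.

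The windows were densely covered with H3K4me3 regions. Regions covered 18.4% of the 425 kb of the windows and 6.32% of the other 3575 kb of the span. Levels are given in RPM, reads per 1000000 reads of a library, as the authors computed them. A region is called strong here where the mean of the 3 libraries is 20 RPM or more, middle from 5 to 20 RPM and weak below 5 RPM. The windows held 3.29 strong regions per 100 kb and the rest of the span 0.811. By class, 14 HIST1 regions were strong, 10 middle and 10 weak, so that 41.2% were strong, against 19.5% of the other regions of the span and 35.3% of all regions. The distance between neighbouring regions of a window had a median of 8433 bp and ran from 370 to 59123 bp.

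**Figure D1:**
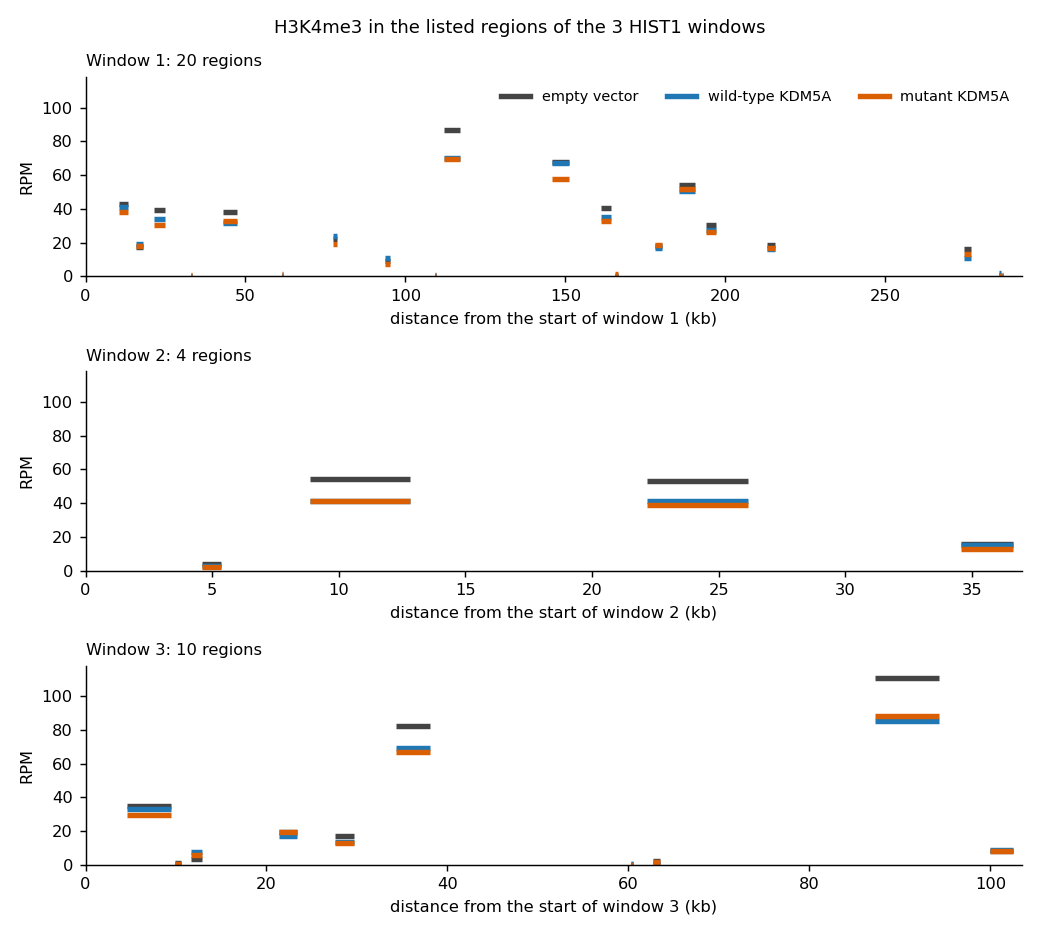
RPM of each listed region (bars as wide as the region) in the 3 libraries, by distance from the start of its window. The strong regions of window 1 stand between 21.8 and 86.4 RPM with the empty vector, weak ones lie between them, and the highest bar, 111 RPM, lies near the end of window 3.

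Strong HIST1 regions were wide for their level when set beside all strong regions. They had a median width of 3965.5 bp (quartiles 3081.5 and 5045), against 2418 bp for strong regions of the rest of the span and 2675 bp for all 10887 strong regions. Their median level, 42.4 RPM, was above the 29.5 RPM of strong neighbours and below the 46.2 RPM of all strong regions. The width contrast with the neighbours is thus not matched for level. Of the 14, 13 were wider than 2675 bp, as were 12 of the 29 strong neighbours. At 4 kb or more lay 6 of the 34 regions (17.6%), 2 of the 149 neighbours (1.34%) and 4.06% of all regions. Middle HIST1 regions had a median of 2048 bp, against 1656 and 1542 bp, and also a higher median level of 14.5 RPM, against 11.0 and 9.28 RPM. Weak ones were narrow, at a median of 445 bp against 821 and 602 bp, and also had a lower median level of 0.64 RPM, against 1.89 and 1.40 RPM. Regions and neighbouring genes are not independent samples, so these medians describe the list and were not tested.

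The widest HIST1 region, at chromosome 6, 27857226 to 27864265 (7040 bp), was also the strongest. Its level was 111 RPM in the empty vector library, 85.1 RPM in the wild-type library and 88.4 RPM in the mutant library, the order in which triplets of values are given from here on. In the whole table it ranked 91 by width and 374 by mean RPM. In window 1 the widest region, at 26155833 to 26161297 (5465 bp), had 67.95, 67.3 and 57.4 RPM, and the strongest, at 26122010 to 26127123 (5114 bp), had 86.4, 70.2 and 69.2 RPM. The second strongest of window 3, at 27804281 to 27808020 (3740 bp), had 82.0, 69.5 and 66.7 RPM. Window 2 held a pair of similar regions, of 3955 and 3976 bp, with means of 45.6 and 44.3 RPM. In each of these 6 regions, the strongest 2 of each window, the empty vector library was the highest of the 3.

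Spread over that width, the signal was shallow. The level per kb of strong HIST1 regions had a median of 11.6 RPM per kb (quartiles 10.4 and 14.4), against 13.4 for strong neighbours and 17.4 for all strong regions. Of the 14, 13 lay below 17.4 RPM per kb, and so did 25 of the 29 strong neighbours, so that low density also held for most strong neighbours. Summed over the strong regions, density was 11.8 RPM per kb in the windows, 12.9 in the rest of the span and 17.3 over all. The exception was the region at 27804281 to 27808020, with 19.5 RPM per kb. Among regions of 4 kb or more, the median was 10.99 RPM per kb for the 6 HIST1 regions and 15.5 for all 1253. Middle HIST1 regions had 6.87 RPM per kb, near the 6.43 of all middle regions. Across regions, width and level rose together alike in each set, with Spearman's rho of 0.937 over the 34 HIST1 regions, 0.876 over the 149 neighbours and 0.940 over all regions. Both measures come from the same reads and the same peak calls.

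**Figure D2:**
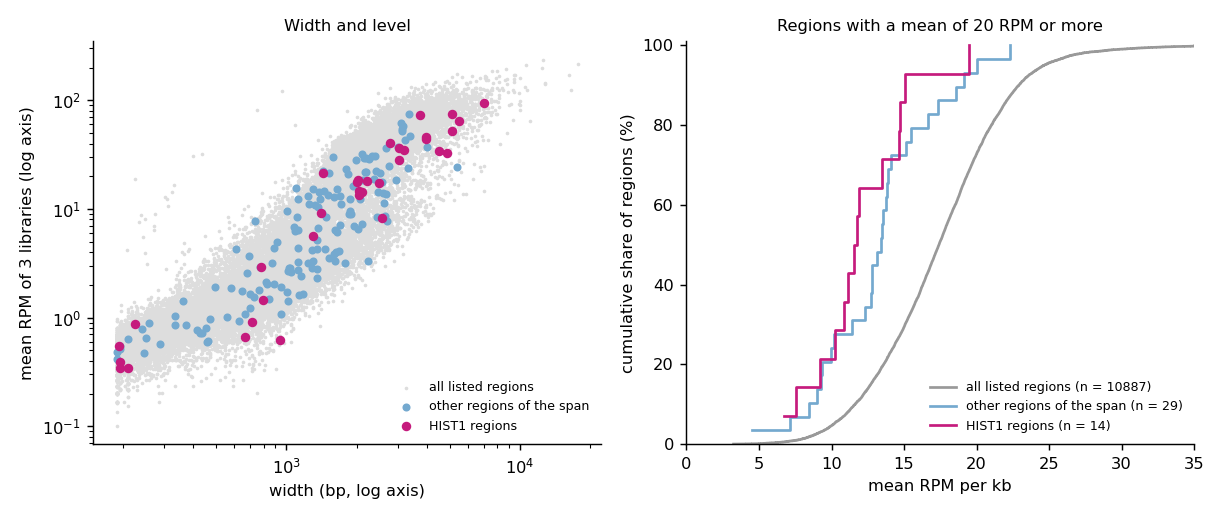
Left, width against mean RPM of the 3 libraries for all regions (grey), the 149 other regions of the span (blue) and the 34 HIST1 regions (magenta), both axes logarithmic. Right, cumulative share of regions by mean RPM per kb among regions of 20 RPM or more, where the curve of the 14 HIST1 regions has its median at 11.6 and that of all regions at 17.4.

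The comparisons ask whether adding wild-type or mutant KDM5A to knockout cells changed the mark at these clusters. Each transfection had 1 H3K4me3 library of 10713021 (empty vector), 10852411 (wild-type) and 9906508 reads (mutant), so no difference below has a replicate check or a p-value. All intervals are 95% intervals of counting error. With RPM, a loss of mark everywhere and a lower share of reads on target cannot be told apart.

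Summed over the 34 regions, RPM was lower with either form of KDM5A, by nearly the same factor as in the neighbours. The sums were 909, 796 and 765 RPM. Against the empty vector, wild-type KDM5A gave a ratio of 0.876 (0.850 to 0.901) and mutant KDM5A 0.841 (0.816 to 0.867). Over the other regions of the span the ratios were 0.867 (0.850 to 0.885) and 0.833 (0.815 to 0.850), and over all regions they were 0.905 and 0.849. The interval of the HIST1 regions thus lay below the ratio of all regions for wild-type KDM5A, as did that of the neighbours. For mutant KDM5A the interval of the HIST1 regions held the ratio of all regions. Without the strongest HIST1 region the wild-type ratio was 0.890 (0.863 to 0.918), an interval that holds the 0.905 of all regions. The position below 0.905 thus rested on that 1 region. Over all 34 regions, mutant stood at 0.961 of wild-type KDM5A (0.932 to 0.991), against 0.960 for the neighbours and 0.938 for all regions. But it stood at 1.03 when libraries were scaled to a median ratio of 1 and at 1.02 when scaled to equal sums. The intervals of the HIST1 regions and of the neighbours overlapped in all 3 comparisons. As a share of the reads in all regions, HIST1 regions took 0.136% (Wilson interval 0.133 to 0.138) with the empty vector, 0.131% (0.128 to 0.134) with wild-type and 0.134% (0.131 to 0.137) with mutant KDM5A. Scaled to equal sums over all regions, the HIST1 sum stood at 0.967 of the empty vector for wild-type and at 0.990 for mutant KDM5A, so most of the RPM difference was one that all regions shared.

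**Figure D3:**
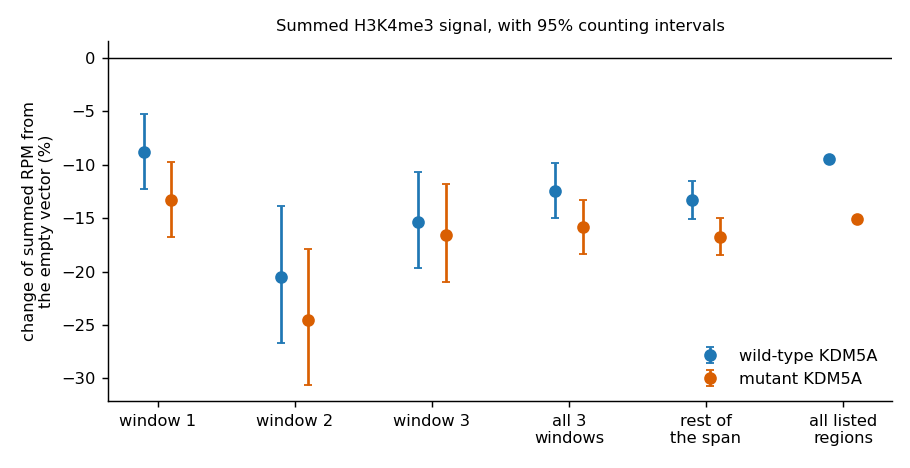
Change of the summed RPM from the empty vector, in percent, for wild-type (blue) and mutant KDM5A (orange), with 95% intervals of counting error as bars (too short to see for all listed regions). Window 2 lies lowest, at −20.5% and −24.5%, and the 3 windows together lie at −12.4% and −15.9%, close to the rest of the span.

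The windows did not shift by the same amount. In window 1 the summed signal changed by −8.83% with wild-type KDM5A (−12.3 to −5.23) and by −13.3% with mutant KDM5A. Window 3 had −15.3% (−19.7 to −10.7) and −16.5%, and window 2 had −20.5% (−26.7 to −13.9) and −24.5% (−30.6 to −17.9). The intervals of windows 1 and 2 did not overlap in the comparison with wild-type KDM5A, nor in that with the mutant, where window 1 ran from −16.7 to −9.76%. Window 2 has only 4 regions, and its value rests on the pair named above. The first of them, at 27098853 to 27102807, had 54.2, 41.1 and 41.5 RPM, a ratio of 0.758 (0.668 to 0.859) for wild-type and 0.765 (0.673 to 0.870) for mutant KDM5A. The second, at 27112163 to 27116138, had 52.9, 41.0 and 38.9 RPM and ratios of 0.775 (0.683 to 0.879) and 0.734 (0.643 to 0.837). At the edge of that window, the region at 27124572 to 27126620 had 15.6, 15.4 and 12.9 RPM, and just outside, at 27144214 to 27146631, the next listed region had 23.4, 22.2 and 21.5 RPM. The ratios of the edge region, 0.987 (0.792 to 1.23) and 0.829 (0.653 to 1.05), had intervals that include 1.

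Among strong HIST1 regions the empty vector library was the highest in 13 of 14 and the mutant the lowest in 10 of 14, against 90.5% and 78.9% of all strong regions. The median log2 ratio (computed with 0.7 RPM added to each value, which understates changes of weak regions) was −0.22 for wild-type KDM5A, against −0.19 for strong neighbours and −0.15 for all strong regions. For mutant KDM5A it was −0.27, against −0.22 and −0.24, and for mutant to wild-type KDM5A −0.067, against −0.045 and −0.093. For wild-type KDM5A the interval of the plain RPM ratio lay below 1 in 8 of the 14, and did so in 40.9% of all strong regions. For mutant KDM5A this held in 10 of 14, against 69.0%, and for mutant to wild-type KDM5A in 2 of 14, against 20.7%. No strong HIST1 region had an interval above 1 in any of the comparisons, where the background was 0.23%, 0.0827% and 0.615%. For mutant KDM5A the ratios of these 14 regions spread no more than counting error gives, with an SD of 0.10 on the log2 scale and 0.10 from counting. Over all strong regions the mutant SD was 0.17, against 0.096 from counting, and over strong neighbours 0.15, against 0.11. For wild-type KDM5A the SD of the 14 was 0.15, against 0.093 from counting, and over all strong regions it was 0.16. These counts stand on the RPM scale: scaling to a median ratio of 1 raises each plain log2 ratio by 0.14 for wild-type and 0.24 for mutant KDM5A, against medians of −0.22 and −0.27.

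The strong regions ran from a ratio of 1.09 to 0.758 for wild-type KDM5A. At the upper end, the region at 26087275 to 26088709 had 21.8, 23.8 and 19.2 RPM, a ratio of 1.09 (0.908 to 1.30) for wild-type KDM5A and 0.878 (0.721 to 1.07) for the mutant. It was the 1 strong region in which the empty vector was not the highest library, and at 1435 bp the narrowest of the strong ones. Whether this region marks a histone gene or another gene, such as HFE, was not analysed. The wide region at 26155833 to 26161297 had a ratio of 0.990 (0.892 to 1.098) for wild-type and 0.845 (0.756 to 0.944) for mutant KDM5A. Mutant to wild-type ratios there were 0.807 (0.665 to 0.977) and 0.854 (0.764 to 0.954), the 2 intervals of strong regions below 1. At the other end, the strongest region, 27857226 to 27864265, had 0.770 (0.706 to 0.840) for wild-type and 0.800 (0.732 to 0.874) for mutant KDM5A. Among the 4 lowest mutant ratios was that of the region at 26031529 to 26034719, with 39.5, 33.8 and 30.6 RPM. Its ratios were 0.857 (0.743 to 0.987) for wild-type and 0.775 (0.666 to 0.900) for mutant KDM5A. For mutant to wild-type KDM5A it had 0.904 (0.774 to 1.06), an interval that includes 1. Regions named for their ratios are the 4 lowest and 4 highest of each comparison at 5 RPM or more, and intervals of such picks do not allow for the choice.

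**Figure D4:**
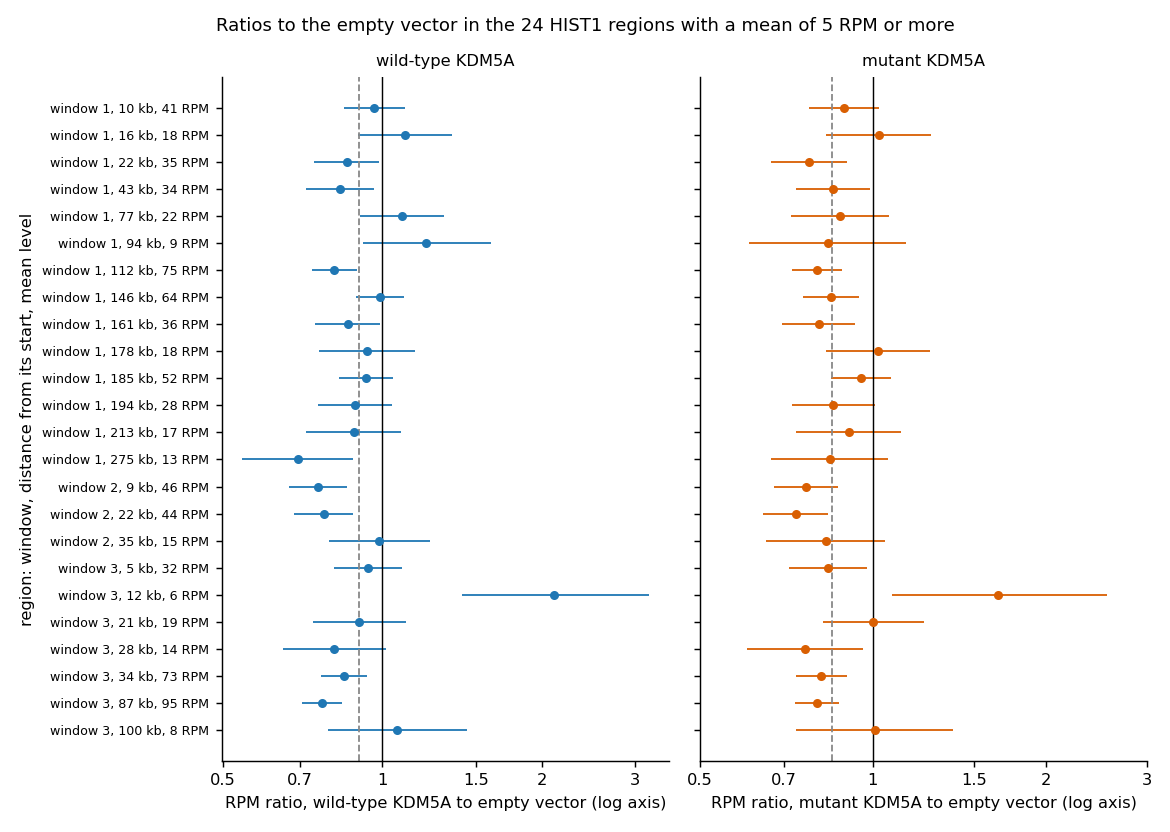
Ratio of RPM to the empty vector for wild-type (left) and mutant KDM5A (right) in the 24 HIST1 regions of 5 RPM or more, in the order of the chromosome, with 95% intervals of counting error, on logarithmic axes. The solid line is a ratio of 1 and the dashed line the ratio summed over all listed regions (0.905 and 0.849), and 1 region of window 3 lies far to the right in both panels.

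Summed, the middle HIST1 regions stood nearer to the empty vector, in part through 1 region described below. Their summed signals were 142, 137 and 133 RPM, ratios of 0.963 (0.896 to 1.04) and 0.935 (0.868 to 1.007). Middle neighbours had 0.870 (0.839 to 0.901) and 0.825 (0.795 to 0.857), and all middle regions 0.924 and 0.864. The intervals of HIST1 and neighbouring middle regions overlapped for wild-type KDM5A. For mutant KDM5A they did not, but they did once 1 of the 10 regions, at 27781611 to 27782908, was left out (0.850 to 0.989). The empty vector was the highest library in 4 of the 10, against 41 of 49 middle neighbours and 58.8% of all middle regions. The share of all middle regions with every interval including 1 was not computed, so the following count does not set HIST1 regions apart. In 6 of the 10 every ratio had an interval that includes 1. Among these were the regions at 26025695 to 26027912, with 17.5, 19.3 and 17.9 RPM, at 26188065 to 26190073, with 17.9, 16.8 and 18.3 RPM, at 27791353 to 27793375, with 19.1, 17.3 and 19.2 RPM, and at 27869948 to 27872517, with 8.12, 8.66 and 8.18 RPM. Lower ones were the regions at 26284639 to 26286685, with 16.0, 11.1 and 13.4 RPM (0.693 for wild-type KDM5A, 0.544 to 0.880), and at 27797529 to 27799634, with 16.8, 13.6 and 12.8 RPM (0.763 for the mutant, 0.603 to 0.963). The region at 26103696 to 26105100 had 9.05, 11.0 and 7.57 RPM, so that the mutant stood at 0.690 of wild-type KDM5A (0.510 to 0.929) while neither differed from the empty vector beyond counting error.

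One HIST1 region of 5 RPM or more was at least 1.5-fold higher with both forms of KDM5A. It lies in window 3 at 27781611 to 27782908 (1298 bp) and its levels were 3.55, 7.46 and 5.85 RPM. Its empty vector level lay below 5 RPM, so its mean of 5.62 RPM passed this filter only through the libraries with KDM5A. The filter thus favours such rises, here and in the shares of all regions that follow. The ratios were 2.10 (1.41 to 3.18) and 1.65 (1.08 to 2.55), and that of mutant to wild-type KDM5A was 0.784 (0.550 to 1.11). Both ratios share the same 38 empty vector reads. Of all regions of 5 RPM or more, 0.311% were at least 1.5-fold higher with wild-type and 0.271% with mutant KDM5A, and of the 24 HIST1 regions this was the only one. The last wide region before it, at 27774567 to 27779416 (4850 bp), had 35.1, 33.0 and 29.4 RPM. Without the region of 1298 bp the summed ratios of the middle HIST1 regions were 0.934 (0.868 to 1.005) and 0.917 (0.850 to 0.989). These intervals hold the ratios of all middle regions, 0.924 for wild-type and 0.864 for mutant KDM5A. For mutant KDM5A the interval also overlaps that of the middle neighbours.

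No HIST1 region of 5 RPM or more was at least 1.5-fold lower in any of the 3 comparisons, where 0.959%, 2.17% and 0.529% of all such regions were, and none was that much higher with mutant than with wild-type KDM5A (background 0.119%). Of all 34, 3 stood lower by 1.5-fold or more and 2 higher with wild-type KDM5A, against 6.53% and 6.23% of all regions. With mutant KDM5A 3 were lower and 4 higher (background 8.15% and 6.61%), and from wild-type to mutant KDM5A 2 were lower and 4 higher (5.45% and 5.19%). With the exception of the region just named, all of these were weak. The weak HIST1 regions hold few reads. The weakest of window 3, at 27830317 to 27830526, had 4, 6 and 1 reads, and that of window 1, at 26119296 to 26119489, had 7, 2 and 2 reads. The narrowest, at 26296514 to 26296705 (192 bp), had 4, 4 and 9 reads. In window 2 the weakest, at 27094584 to 27095361, had 3.64, 2.95 and 2.12 RPM, from 39, 32 and 21 reads. Summed over all 10 weak regions, the signal was 9.71, 8.29 and 9.08 RPM, with ratios of 0.854 (0.637 to 1.14) and 0.936 (0.698 to 1.25), so that no change of their sum was detectable at this depth. Single weak regions had intervals that exclude 1 for wild-type KDM5A in opposite directions: that at 27832742 to 27833536 had 22, 5 and 18 reads, a ratio of 0.224 (0.0664 to 0.607), and that at 26295428 to 26296143 had 7, 19 and 3 reads, a ratio of 2.68 (1.08 to 7.54). So did mutant ratios: 14.1 (2.11 to 597) at 26175634 to 26176576, from 1, 5 and 13 reads in the 3 libraries. At 27779845 to 27780508, with 13, 5 and 3 reads, the mutant ratio was 0.250 (0.0456 to 0.908). The share of all weak regions with such intervals was not computed, so these regions are not set apart from other weak ones.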

How the data were processed

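The deposited table, on hg19 per the submitters' processing notes, gives RPM for the 3 H3K4me3 libraries over 30840 regions, as the authors computed it. The notes name deepTools 3.5.6, Bowtie2 2.5.4, HOMER and both MACS and MACS2. How peaks were called, duplicates and multi-mapping reads treated and reads counted is not stated there. The empty vector column is headed H3K4me4, read as a slip for H3K4me3. Region starts are printed counting from 1. Inputs, IgG and background subtraction were not used here.

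Every deposited RPM value was within 0.02 reads of a whole multiple of 1 step per library, so reads were recovered by division. Ratios of RPM have exact conditional (Clopper-Pearson) intervals and shares Wilson intervals, which cover counting error only. Log2 ratios used a pseudocount of 0.7 RPM. With 1 library per group no test was run. The calculation was tested on simulated data. Alternatives were other pseudocounts, scalings, thresholds, filters and overlap rules.

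Members, classes and lists were chosen with earlier results of these data known. Named regions are the 2 strongest, the widest, narrowest and weakest of each window, and the 4 lowest and 4 highest ratios of each comparison at 5 RPM or more. A few other regions were named after their values were seen. Of the matched histone promoters, 2 of 48 share a run of 100 bases with one elsewhere in the clusters. The gene lists and cell type markers that need hg19 gene positions, and the histone proteins, were not analysed here. The tools were scipy 1.17.1, numpy 2.4.6, pandas 2.3.3 and, for plots, matplotlib 3.10.9, under Python 3.11.15.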

Additional observations from a re-analysis of the deposited data

How the results depend on the processing

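Scaling decided the direction of the small differences. Setting to 1 the median ratio over regions at or above the median level of 4.70 RPM moved log2 ratios to the empty vector by 0.14 (wild-type KDM5A) and 0.24 (mutant), and scaling to equal sums over all regions by 0.14 and 0.24. The summed ratio of the HIST1 regions then became 0.968 and 0.967 for wild-type KDM5A and 0.993 and 0.990 for mutant KDM5A, and that of mutant to wild-type KDM5A turned from 0.961 to 1.03 and 1.02. The median log2 ratio turned from −0.12 to 0.014 under both scalings for wild-type KDM5A, moved from −0.24 to −0.0064 and −0.010 for the mutant, and turned from −0.067 to 0.027 and 0.024 for mutant to wild-type KDM5A. The difference in median log2 ratio from the neighbours had no steady sign. For wild-type KDM5A it was 0.070, but −0.023 among regions of 20 RPM or more and −0.011 against all other regions. For mutant KDM5A it was 0.023, but −0.056 and −0.054 in the same settings and −0.021 at or above the median level. For mutant to wild-type KDM5A it was −0.011, but 0.010 against all other regions.

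Counts past 1.5-fold rested on weak regions. At 2-fold they were 1 lower and 0 higher for wild-type KDM5A, 0 and 1 for the mutant, and 1 and 1 for mutant to wild-type. With 3.5 RPM added they were 0 and 1, 0 and 0, and 0 and 0, and in the 24 regions at or above the median level 0 and 1, 0 and 1, and 0 and 0. With 0.07 RPM added, 4 were higher for wild-type KDM5A and 5 lower for the mutant, and 1 was lower for the mutant with the median ratio set to 1. In 57 of 89 alternatives, those on width, level and the overlap rule and some of the sign changes above included, the value stayed within the counting or order-statistic interval of the value, or within 1.5 times the count.

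Summed ratios without the strongest region and without the middle region of highest wild-type ratio were chosen after seeing the data. With 1 library per transfection there was no replicate to leave out. No paired analysis was possible because the groups share fewer than 2 replicate numbers. Depth limits weak regions, where 3 reads, the limit that a count of 0 allows, are 0.280, 0.276 and 0.303 RPM.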
